A study of Mus musculus with 40 samples.

Results

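The TGF-beta genes described here were *Tgfb1*, *Tgfb2* and *Tgfb3* (the ligands), *Tgfbr1* and *Tgfbr2* (the receptors), *Ltbp1*, *Ltbp2* and *Ltbp3* (latent TGF-beta binding proteins), and *Smad3* and *Smad7* (intracellular mediators). They were chosen by gene name, and all 10 were found among the 17038 genes listed for both sexes. The 40 hearts were from male and female mice, with 1 polyA RNA library per mouse and 1 table of values per sex. The study describes the sequenced tissue as left ventricle, and the titles read Heart. CM-Il11-Tg mice were heterozygous for the α-MHC-MerCreMer (MCM) transgene, which places a tamoxifen-activated Cre in cardiomyocytes, and for *Rosa26-Il11*, from which Cre releases the expression of *Il11*. They were studied 1, 3 and 6 weeks after tamoxifen, which was injected at 20 mg/kg on 5 consecutive days from 8 weeks of age, or without tamoxifen (uninduced, labelled T0wk). Control mice (labelled WT) were littermates with MCM and without *Rosa26-Il11* that also received tamoxifen. MCM was therefore common to every group, and uninduced mice differed from controls in both the *Rosa26-Il11* allele and tamoxifen. The study calls the controls age-matched, and the titles of control and uninduced hearts read Baseline. The time after tamoxifen at which controls were collected is not otherwise given in the sources used here. It may therefore differ from that of the groups compared with them. Each group had 4 mice of each sex, except male controls and males at 6 weeks, which had 3, because the labels of 2 male libraries contradict each other and both were left out of every comparison.

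TGF-beta is made as a latent complex. The ligand is held by its propeptide, which latent TGF-beta binding proteins tie to the extracellular matrix, and integrins or proteases release the active dimer. The active ligand binds the type II receptor (*Tgfbr2*), which phosphorylates the type I receptor (*Tgfbr1*), and the type I receptor phosphorylates Smad2 and Smad3, which enter the nucleus. Smad7 is an inhibitory Smad that is induced by the pathway and limits the type I receptor. In the heart, TGF-beta is known for driving fibroblasts to make collagen after injury.

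Both receptor genes were higher in every CM-Il11-Tg group after tamoxifen and *Tgfb1* was called in 1 comparison alone, so the 250 bases upstream of these 3 starts are shown, from GRCm39, before the start of the canonical GENCODE transcript and on the strand of each gene, with capitals marking GGGCGG (the core of the GC box bound by Sp1) or CAGACA (a Smad-binding element), read on both strands.

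Tgfbr2 (chr9:116004801-116005050, minus strand): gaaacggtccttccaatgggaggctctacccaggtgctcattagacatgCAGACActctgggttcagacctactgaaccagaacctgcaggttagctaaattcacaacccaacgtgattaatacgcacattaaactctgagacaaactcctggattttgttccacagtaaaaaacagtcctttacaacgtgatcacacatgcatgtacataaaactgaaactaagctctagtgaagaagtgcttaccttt

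Tgfbr1 (chr4:47352884-47353133, plus strand): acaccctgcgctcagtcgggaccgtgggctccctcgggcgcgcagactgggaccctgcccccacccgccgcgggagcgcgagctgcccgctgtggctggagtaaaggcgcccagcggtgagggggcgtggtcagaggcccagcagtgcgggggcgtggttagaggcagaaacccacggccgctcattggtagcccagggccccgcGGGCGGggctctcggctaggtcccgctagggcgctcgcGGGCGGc

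Tgfb1 (chr7:25386140-25386389, plus strand): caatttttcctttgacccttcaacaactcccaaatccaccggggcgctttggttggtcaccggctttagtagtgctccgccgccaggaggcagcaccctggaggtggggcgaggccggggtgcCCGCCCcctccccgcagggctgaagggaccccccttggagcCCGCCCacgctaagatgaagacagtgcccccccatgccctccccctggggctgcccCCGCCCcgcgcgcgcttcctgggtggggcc

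The *Tgfbr2* window was 42.8% G and C and held 1 copy of CAGACA, which begins 201 bases before the start, and no GGGCGG. Of its bases, 76 lie in exons annotated to *Gm4668*, a noncoding gene. RefSeq places the start of *Tgfbr2* elsewhere, since its own window for this gene shares no run of 20 bases with the one shown, while 1 of its 2 windows for *Tgfbr1* and its window for *Tgfb1* overlap with those shown. The windows of *Tgfbr1* and *Tgfb1* were 75.2% and 69.6% G and C, with 2 and 3 copies of GGGCGG and no CAGACA. Of 21770 windows of the same length, 36.3% held GGGCGG and 15.6% held CAGACA, and their median G and C content was 53.2%. TTCNNNGAA, the letters of the element that STAT3 binds, was in none of the 10 members' windows and in 7.70% of all windows. These matches are letters in a window and were not tested for binding.

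The libraries held 16663513 to 65333832 reads on listed genes in males and 19147947 to 30929192 in females, and the lowest member, *Ltbp2*, was counted in every library. Levels are in CPM, reads divided by a factor for each library. The 9 ventricular cardiomyocyte genes checked (*Myh6*, *Myl2* and others) summed to 42070 CPM or more in every heart. The atrial genes *Myl7* and *Myl4* reached at most 0.529 and 3.01 CPM in 18 of the 20 female hearts, but 52.3 and 67.0 CPM in replicate 2 at 1 week and 346 and 383 CPM in replicate 2 at 6 weeks. Results that use these 2 hearts are also given without them where they change. *Il11* was at most 0.166 CPM in controls, 15.5 to 49.2 CPM in uninduced hearts and 328 to 819 CPM after tamoxifen.

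Against control, 3 of the 10 members were higher at all 3 times in both sexes: *Tgfbr2*, *Tgfbr1* and *Ltbp3*. The share of all genes higher in all 6 comparisons is not given here, so this count is not read as a result about the members. *Ltbp2* and *Tgfb2* were each higher in 4 of these 6 comparisons, *Smad3* in 3, which were all in females, and *Tgfb1* in 1. *Ltbp1* was lower in 1, and *Tgfb3* and *Smad7* were called in none. In males, 5, 4 and 4 members were higher at 1, 3 and 6 weeks, beside 18.9%, 13.2% and 16.2% of the 16931 genes tested, and 0, 0 and 1 were lower, beside 14.6%, 8.10% and 10.9%. In females, 5, 5 and 7 were higher, beside 15.3%, 16.8% and 21.7% of 16956 genes, and none was lower, beside 13.1%, 14.5% and 21.0%. A gene was called at an adjusted p under 0.05 in limma, with no minimum fold change. Over the members, the median log2 fold change ran from 0.36 to 0.40 (males) and from 0.53 to 0.75 (females), while the median of all genes lay within 0.03 of 0. The sexes were scaled apart, and a difference between them was not tested.

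**Figure D1:**
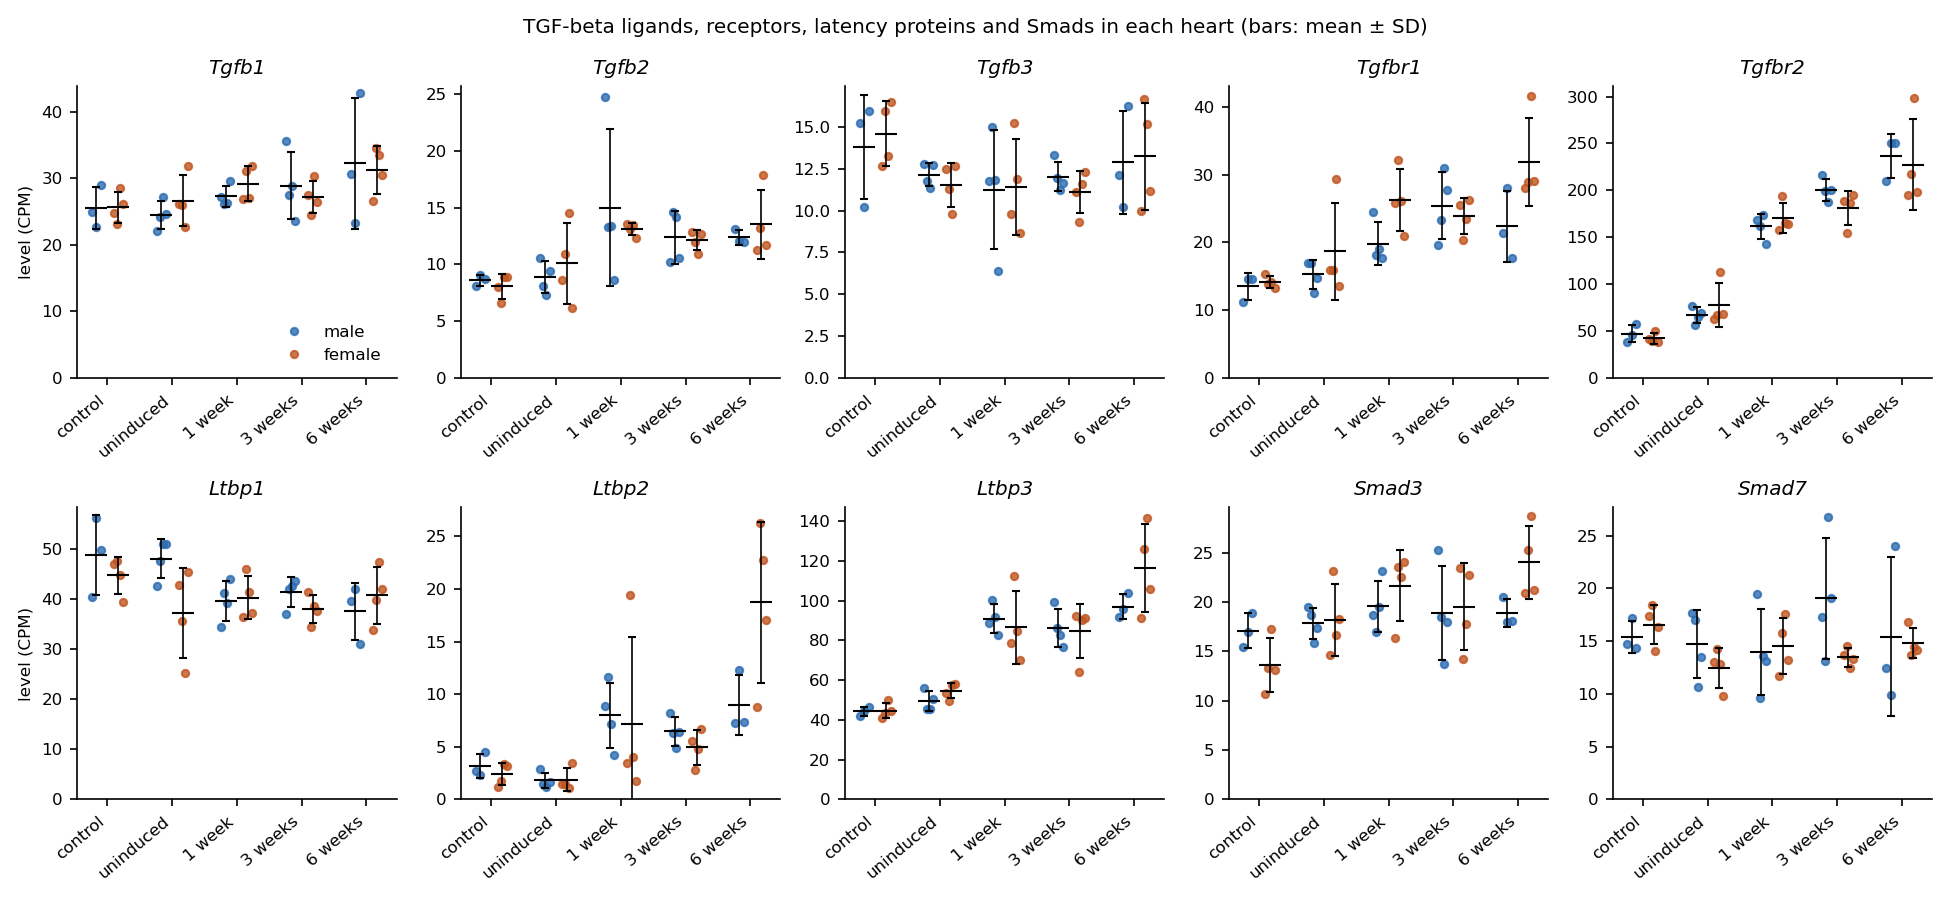
Level of each member (y axis, CPM, from 0) in each heart, by group, with males in blue and females in orange; bars are the mean and SD of 3 or 4 hearts. *Tgfbr2*, *Tgfbr1* and *Ltbp3* after tamoxifen lie above all controls of the same sex, while *Tgfb1*, *Tgfb3*, *Ltbp1* and *Smad7* overlap with controls in nearly every group.

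*Tgfbr2* encodes the type II receptor, the one that binds ligand first, and lies at chr9:115913361-116004800 (GRCm39, minus strand). Its level in male controls was 38.8, 45.6 and 56.9 CPM. Male levels were 169, 162, 173 and 142 CPM at 1 week, 216, 199, 187 and 199.9 CPM at 3 weeks, and 210, 250.1 and 250.1 CPM at 6 weeks. Every male heart after tamoxifen was thus above the highest control, and the lowest was 142 CPM. Female controls had 41.0, 39.1, 50.3 and 38.3 CPM. The female hearts had 158, 194, 166 and 164 CPM at 1 week, 189, 154, 186 and 195 CPM at 3 weeks, and 195, 218, 298 and 198 CPM at 6 weeks. These groups did not overlap with controls either. The log2 fold change in males was 1.78 ± 0.13 (SE), 2.09 ± 0.13 and 2.33 ± 0.14 at 1, 3 and 6 weeks, with a limma adjusted p of 2.8e-10 at 6 weeks. In females it was 2.00 ± 0.16, 2.09 ± 0.16 and 2.40 ± 0.16, with a limma adjusted p of 2.6e-10 at 6 weeks. At 6 weeks this is a 5.02-fold higher level in males and a 5.29-fold higher level in females. Its change was the largest of the 10 members in 5 of these 6 comparisons, the exception being females at 6 weeks, where *Ltbp2* changed more, and it was called in each of the 6 under every alternative tried.

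*Tgfbr1* encodes the type I receptor kinase (chr4:47353134-47414931, plus strand). Male controls had 11.2, 14.7 and 14.7 CPM, and male hearts had 24.4, 18.2, 19.0 and 17.6 CPM at 1 week, 19.6, 23.4, 31.0 and 27.8 CPM at 3 weeks, and 21.4, 28.07 and 17.7 CPM at 6 weeks. The female controls lay between 13.3 and 15.3 CPM, and the female hearts between 21.0 and 32.1 CPM at 1 week, between 20.4 and 26.3 CPM at 3 weeks and between 28.03 and 41.6 CPM at 6 weeks. None of these groups overlapped with controls. The log2 fold change was 0.53 ± 0.18 (SE), 0.88 ± 0.18 and 0.69 ± 0.19 in males and 0.86 ± 0.18, 0.74 ± 0.18 and 1.13 ± 0.18 in females, so *Tgfbr1* rose less than *Tgfbr2* in size at each time. The limma adjusted p at 6 weeks was 0.0097 in males and 4.9e-05 in females. In males the call at 1 week was lost without control replicate 1 (adjusted p = 0.126) or without replicate 1 at 1 week (0.0758), and the call at 6 weeks without control replicate 1 (0.0544) or without replicate 3 at 6 weeks (0.0546), all in limma.

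*Ltbp3* encodes a latent TGF-beta binding protein that tethers the latent ligand (chr19:5790932-5808669, plus strand). Male controls had 42.1, 44.4 and 46.5 CPM. Males had 89.0, 100.3, 91.7 and 82.7 CPM at 1 week, 99.3, 86.2, 82.9 and 76.9 CPM at 3 weeks and 91.5, 95.5 and 104 CPM at 6 weeks, all above controls. Female controls had 41.1, 43.4, 49.8 and 44.3 CPM, and females had 78.6, 113, 84.6 and 70.3 CPM at 1 week, 92.5, 64.2, 90.1 and 91.2 CPM at 3 weeks and 91.4, 126, 142 and 105.95 CPM at 6 weeks. Here too no heart after tamoxifen was as low as a control. The rise was close to a doubling on the log2 scale, with 1.03 ± 0.11 (SE), 0.95 ± 0.11 and 1.12 ± 0.11 in males and 0.93 ± 0.15, 0.90 ± 0.15 and 1.35 ± 0.15 in females. The limma adjusted p at 6 weeks was 4.6e-07 in males and 3.1e-07 in females.

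*Ltbp2* is a matrix protein of the same family that is known not to bind latent TGF-beta itself (chr12:84829986-84923306, minus strand). It was the lowest member, with 2.698, 2.35 and 4.51 CPM in male controls. Males had 8.90, 11.7, 7.15 and 4.19 CPM at 1 week, 8.25, 6.34, 4.93 and 6.37 CPM at 3 weeks and 7.31, 12.3 and 7.39 CPM at 6 weeks, and only 1 of these hearts, at 1 week, was below the highest control. The log2 fold change in males was 1.16 ± 0.29 (SE), 0.94 ± 0.29 and 1.37 ± 0.32, and it was called at each time. The call at 3 weeks was lost in limma without control replicate 1 (adjusted p = 0.0945), control replicate 3 (0.143), or replicate 1 (0.0761) or 2 (0.0502) at 3 weeks. With all hearts kept, it was lost with the replicate number as a block (limma adjusted p = 0.0509). Female controls had 1.21, 1.79, 3.40 and 3.16 CPM. Females had 3.49, 19.5, 4.01 and 1.78 CPM at 1 week, 5.54, 2.77, 4.75 and 6.73 CPM at 3 weeks, and 8.80, 26.3, 22.8 and 17.1 CPM at 6 weeks. The 6-week hearts stood above all controls, and the earlier groups overlapped with them.

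The female log2 fold change of *Ltbp2* was 0.97 ± 0.49 (SE) at 1 week and 0.94 ± 0.49 at 3 weeks, not called, and 2.71 ± 0.49 at 6 weeks, with a limma adjusted p of 0.00017 and a 6.54-fold higher level. The highest heart at 1 week (19.5 CPM) and at 6 weeks (26.3 CPM) were those with atrial genes. Without both of them the log2 fold change was 0.34 at 1 week (limma adjusted p = 0.585) and 2.51 at 6 weeks (limma adjusted p = 3.8e-05). The 7 fibroblast genes summed to 2315 and 2733 CPM in these 2 hearts, against 1711 to 1939 CPM in female controls. The 4 mesothelial genes summed to 14.5 to 73.2 CPM in the female hearts at 6 weeks, all above the 5.61 to 10.7 CPM of female controls, and the highest sum was in the heart with 22.8 CPM of *Ltbp2*. Their sum was also above controls in uninduced females (11.9 to 26.9 CPM) and at 1 week (22.3 to 45.0), and was 5.47 to 60.1 CPM at 3 weeks. In uninduced females *Ltbp2* was not higher than in controls (-0.29, limma adjusted p = 0.83). The part of these cells in the level of *Ltbp2* was not tested. On the reads behind the values, the female rise at 1 week was called (edgeR adjusted p = 0.0451, DESeq2 adjusted p = 0.0373), as it was in limma without replicate 4 at 1 week (adjusted p = 0.042). The female rise at 3 weeks was called with only the 2 groups in the fit (0.94, limma adjusted p = 0.0191).

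*Ltbp1*, which tethers all of the latent ligands (chr17:75312519-75699507, plus strand), was called lower than control in 1 comparison, males at 6 weeks. Male controls had 40.4, 56.1 and 49.7 CPM and males at 6 weeks had 39.6, 41.8 and 31.0 CPM, so the groups overlapped. The log2 fold change was -0.37 ± 0.14 (SE), just past the threshold (limma adjusted p = 0.0495). This call was lost with a pseudocount of 0.1 (0.0501), with no filter (0.0503), with only the 2 groups in the fit (0.186), and in limma without control replicate 3 (0.233) or 4 (0.12) or without 6-week replicate 1 (0.0573) or 4 (0.194). Its log2 fold changes in the 5 other comparisons lay between -0.29 and -0.14. The male value at 1 week was called without control replicate 1 (-0.42, limma adjusted p = 0.0278). The female value at 3 weeks was called with only the 2 groups in the fit (-0.23, limma adjusted p = 0.0444). Against uninduced hearts, *Ltbp1* at 1, 3 and 6 weeks was at -0.27, -0.21 and -0.36 in males and at 0.14, 0.06 and 0.15 in females. None of these was called in limma at the main settings. With median-of-ratios scaling the male value at 6 weeks was called (-0.37, limma adjusted p = 0.0474).

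Among the ligands, *Tgfb2* moved most (chr1:186354985-186438294, minus strand). Male controls had 8.10, 9.05 and 8.68 CPM, and males had 24.8, 13.3, 13.3 and 8.58 CPM at 1 week, 10.2, 14.6, 14.2 and 10.6 CPM at 3 weeks and 13.1, 12.04 and 11.99 CPM at 6 weeks. All but 1 of these hearts, at 1 week, exceeded the highest male control. In males the log2 fold change was 0.67 ± 0.23 (SE) at 1 week (limma adjusted p = 0.0305), and 0.49 ± 0.23 and 0.50 ± 0.25 at 3 and 6 weeks, not called. The call at 1 week was lost when control replicate 1, 3 or 4 was left out, with limma adjusted p from 0.067 to 0.0866, or replicate 1 at 1 week (0.0967), which held 24.8 CPM. With only the 2 groups in the fit it was lost as well (limma adjusted p = 0.073), and the male value at 3 weeks was called (0.49, limma adjusted p = 0.037). Females had 6.58 to 8.91 CPM in controls and 10.9 to 17.9 CPM after tamoxifen, with no overlap. There the log2 fold change was 0.67 ± 0.18, 0.56 ± 0.18 and 0.69 ± 0.18, called at each time, with a limma adjusted p of 0.0045 at 6 weeks. The call at 3 weeks was lost in limma without control replicate 2 (adjusted p = 0.0781) or without replicate 1 (0.0548) or 4 (0.0538) at 3 weeks.

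*Tgfb1*, the ligand most often tied to fibrosis (chr7:25386390-25404506, plus strand), stayed near its control level. Its mean was 25.5 ± 3.2 CPM (SD, n = 3) in male controls and 32.3 ± 9.9 CPM (n = 3) in males at 6 weeks, a log2 fold change of 0.30 ± 0.17 (SE) that was not called. It was called without replicate 3 at 6 weeks (0.51, limma adjusted p = 0.0305). Females had 25.6 ± 2.3 CPM (n = 4) in controls and 31.3 ± 3.6 CPM (n = 4) at 6 weeks, a log2 fold change of 0.28 ± 0.11 (limma adjusted p = 0.0467). This call was lost without any 1 of control replicates 1, 2 and 4 or of 6-week replicates 2, 3 and 4, with limma adjusted p from 0.0679 to 0.14, and without the 2 hearts with atrial genes, which include 6-week replicate 2 (0.23, limma adjusted p = 0.145). With all hearts kept, it was lost with only the 2 groups in the fit (limma adjusted p = 0.0605) and with the replicate number as a block (0.052). *Tgfb3*, the third ligand (chr12:86102756-86126301, minus strand), had log2 fold changes between -0.38 and -0.10 and was not called. With only the 2 groups in the fit, *Tgfb3* was called lower in females at 3 weeks (-0.38, limma adjusted p = 0.0197). The female value at 1 week passed the threshold without replicate 2 (-0.51, limma adjusted p = 0.0294), the heart with atrial genes, and without both such hearts (-0.51, limma adjusted p = 0.0202).

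*Smad3* encodes the receptor-activated Smad that carries the signal to the nucleus (chr9:63554049-63665476, minus strand). In males its mean was 17.1 ± 1.8 CPM (SD, n = 3) in controls and 18.8 ± 1.4 CPM (n = 3) at 6 weeks, and its log2 fold changes of 0.11 to 0.19 were not called. Female controls had 10.7, 13.4, 17.2 and 13.1 CPM, and females had 16.3, 23.6, 22.5 and 24.1 CPM at 1 week, 23.4, 14.2, 17.8 and 22.8 CPM at 3 weeks and 20.9, 25.2, 28.7 and 21.2 CPM at 6 weeks. The 6-week hearts were above all female controls, and the earlier groups overlapped with the highest one. The female log2 fold change was 0.65 ± 0.18 (SE), 0.50 ± 0.18 and 0.81 ± 0.18, with a limma adjusted p of 0.0011 at 6 weeks. At 3 weeks the call was lost in limma without control replicate 1, 2 or 4 or without replicate 1, 3 or 4 at that time, with adjusted p from 0.0516 to 0.122. Female controls were lower in *Smad3* than male controls (13.6 ± 2.7 CPM, n = 4), values that come from tables scaled apart. *Smad7*, the inhibitory Smad (chr18:75500374-75529006, plus strand), had log2 fold changes from -0.28 to 0.26 and was not called. With only the 2 groups in the fit, *Smad7* was called lower in females at 3 weeks (-0.28, limma adjusted p = 0.0378). Its levels ran from 9.64 to 26.7 CPM over the male hearts after tamoxifen and from 11.7 to 17.6 CPM over the female ones.

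**Figure D2:**
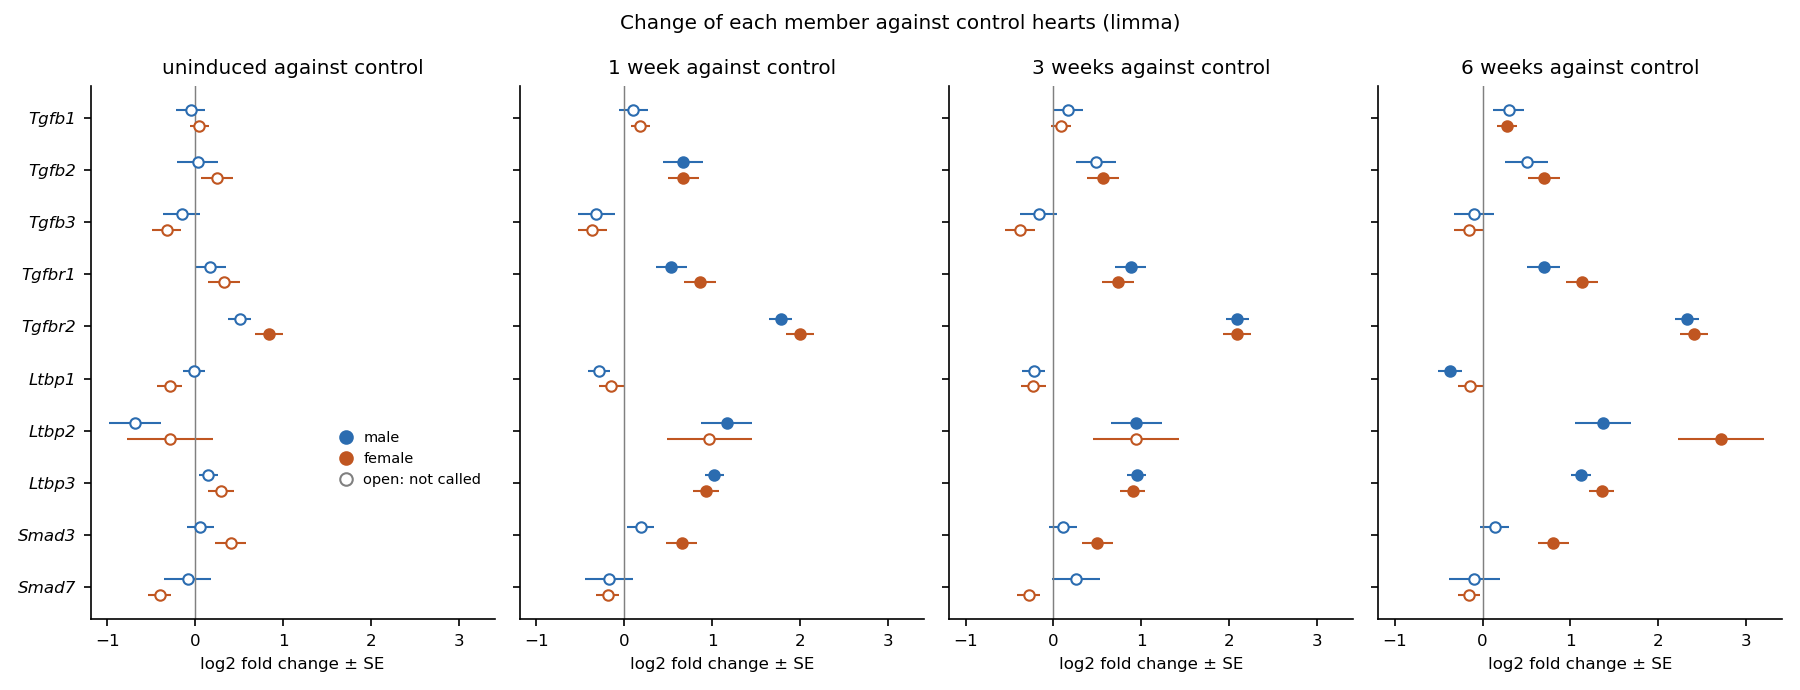
Log2 fold change (x axis) of each member against control hearts of the same sex, with its standard error, for uninduced hearts and for 1, 3 and 6 weeks after tamoxifen; filled points passed an adjusted p of 0.05 in limma and open points did not. *Tgfbr2* lies between 1.78 and 2.40 after tamoxifen in both sexes, and *Tgfb3* and *Smad7* have open points throughout.

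Uninduced hearts, whose *Il11* was low but above control, differed from controls in 1 member. In females *Tgfbr2* was 62.7, 67.4, 113 and 67.7 CPM, above every control, with a log2 fold change of 0.84 ± 0.16 (SE) and a limma adjusted p of 0.0043. No member was called lower. Among all genes, 2.41% were higher and 0.466% lower. The heart with 113 CPM, replicate 3, also held the most *Il11* of the uninduced hearts (49.2 CPM) and 29.4 CPM of *Tgfbr1*. Without it *Tgfbr2* was still called (0.65, limma adjusted p = 0.0102), and with only these 2 groups in the fit it was not (0.061). In males *Tgfbr2* was 76.9, 56.3, 64.6 and 69.2 CPM, and 1 heart was within the range of controls. The male log2 fold change of 0.51 ± 0.13 was not called in limma (adjusted p = 0.094), and was called without control replicate 4 (0.65, limma adjusted p = 0.0222) and in DESeq2 (adjusted p = 0.0256). In males 0 members were called in limma, where 0.561% of genes were higher and 0.0354% lower, and 2 had an unadjusted p under 0.05 beside 10.6% of all genes. DESeq2 called 1 male member, and the share of all genes it called is not given here.

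Against uninduced hearts, which also carry *Rosa26-Il11* but received no tamoxifen, *Tgfbr2* and *Ltbp3* were higher at each time in both sexes. The share of all genes higher in each of these comparisons at once is not given here. *Tgfbr2* had log2 fold changes of 1.27 ± 0.12 (SE), 1.59 ± 0.12 and 1.82 ± 0.13 in males and 1.16 ± 0.16, 1.25 ± 0.16 and 1.56 ± 0.16 in females. Those of *Ltbp3* were 0.88 ± 0.10, 0.80 ± 0.10 and 0.97 ± 0.11 in males and 0.63 ± 0.15, 0.61 ± 0.15 and 1.06 ± 0.15 in females. *Ltbp2* was higher at each time in males (1.85, 1.63 and 2.06) and at 6 weeks in females (3.00 ± 0.49, limma adjusted p = 0.00011, or 2.36 with a pseudocount of 2). *Tgfbr1* was higher at 3 and 6 weeks in males (0.70 and 0.52) and at 6 weeks in females (0.80). Its male call at 6 weeks was lost in limma without uninduced replicate 2, 3 or 4 or without 6-week replicate 1 or 3, with adjusted p from 0.0504 to 0.189. With all hearts kept, it was lost with only the 2 groups in the fit (limma adjusted p = 0.0747) and with the replicate number as a block (0.0699). *Tgfb2* was higher at 1 week in males (0.64), a call that 6 of the 8 hearts could each end when left out (limma adjusted p up to 0.143). That call was also lost with only the 2 groups in the fit (limma adjusted p = 0.0837). In males 4, 4 and 4 members were called at 1, 3 and 6 weeks, beside 18.8%, 16.1% and 20.4% of all genes, and in females 2, 2 and 4, beside 12.6%, 16.7% and 22.8%. Without female uninduced replicate 3, which held the most *Il11*, *Tgfbr2* and *Ltbp3* were joined at 1 and 3 weeks by *Tgfbr1* (0.76 and 0.64) and *Tgfb2* (0.61 and 0.50), giving 4 members at each time. At 1 week *Tgfbr1* (0.63) and *Ltbp2* (1.67) were also called in limma without female replicate 4 of that week. At 6 weeks, *Tgfb1* was called in limma without male 6-week replicate 3 (0.56, adjusted p = 0.0172) or without female uninduced replicate 4 (0.32, adjusted p = 0.0352), and male *Ltbp1* without uninduced replicate 1 (-0.41, adjusted p = 0.0411) or 6-week replicate 3 (-0.44, adjusted p = 0.0328). Male *Ltbp1* at 6 weeks was also called in DESeq2 (adjusted p = 0.0386) and in limma with median-of-ratios scaling (adjusted p = 0.0474), and female *Tgfb2* in limma without uninduced replicate 3 (0.63, adjusted p = 0.0063).

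Between the weeks no member was called in limma in either sex. The order of the means of *Tgfbr2* was control, uninduced, 1, 3 and 6 weeks in both sexes. In males 3 weeks and 6 weeks were each above 1 week without overlap, by 0.31 ± 0.12 (SE; limma adjusted p = 0.22) and 0.55 ± 0.13 (limma adjusted p = 0.11) on the log2 scale. The latter was called without replicate 1 at 6 weeks (0.63, limma adjusted p = 0.0486) and in DESeq2 (0.56, adjusted p = 0.0131). In females 6 weeks exceeded 1 week by 0.40 ± 0.16 (limma adjusted p = 0.31). Female *Ltbp2* at 6 weeks exceeded 1 week by 1.74 ± 0.49 (limma adjusted p = 0.10) and 3 weeks by 1.77 ± 0.49 (limma adjusted p = 0.17). Without the 2 hearts with atrial genes the first of these differences was 2.18 (limma adjusted p = 0.00845). It was also called without 6-week replicate 1 (2.05, limma adjusted p = 0.0454), as was the second (2.09, limma adjusted p = 0.0415), and without 1-week replicate 2 both *Ltbp2* (2.37, limma adjusted p = 0.0014) and *Ltbp3* (0.56, limma adjusted p = 0.0415) were called. Over all genes, 0.0177%, 0.165% and 0.00% were called in males at 3 against 1, 6 against 1 and 6 against 3 weeks, and 0.218%, 1.03% and 0.00% in females. Of the 10 members, 2, 1 and 0 had an unadjusted p under 0.05 in males, beside 16.0%, 15.4% and 6.33% of all genes, and 0, 3 and 3 in females, beside 1699 of 16956 genes at 3 against 1 week and 12.6% and 15.2% of genes in the others.

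Per kilobase of exon, *Tgfbr2*, *Tgfb1*, *Ltbp3* and *Ltbp1* were the 4 highest members in control hearts, with means of 5.36, 5.02, 4.73 and 4.54 CPM per kb in males and 4.80, 5.04, 4.76 and 4.16 CPM per kb in females. Neighbours among these 4 overlapped. *Tgfbr1* was at 2.04 ± 0.30 (SD, n = 3) and 2.13 ± 0.13 CPM per kb (n = 4), *Tgfb2* at 1.38 and 1.29, and *Ltbp2* was last at 0.389 and 0.292. At 6 weeks *Tgfbr2* led at 26.9 ± 2.7 CPM per kb in males (n = 3) and 25.8 ± 5.5 in females (n = 4), followed by *Ltbp3* at 10.3 ± 0.7 and 12.4 ± 2.4, and neither overlapped with the next member. *Tgfbr1* was then at 3.381 ± 0.80 and 4.82 ± 0.98 CPM per kb.

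Of the summed level of the 3 ligands per kilobase, *Tgfb1* made up 55.5% ± 1.5 (SD, n = 3) in male controls and 58.1% ± 4.3 (n = 3) at 6 weeks, and 55.2% ± 3.0 (n = 4) and 57.0% ± 2.9 (n = 4) in females. The share of *Tgfb3* was 29.1% in male controls and 22.9% at 6 weeks, and 30.7% and 23.2% in females, while that of *Tgfb2* was 15.4% and 19.0% in males and 14.1% and 19.9% in females. The same was done for the 3 latent TGF-beta binding proteins described here, so *Ltbp4*, of the same family, is outside the sum. Among the 3 the share of *Ltbp1* was lower at 6 weeks and those of *Ltbp3* and *Ltbp2* were higher. The summed level of the 3 was 9.65 CPM per kb in male controls and 14.9 at 6 weeks, and 9.21 and 18.5 in females. The share of *Ltbp1* was 46.8% ± 3.7 (SD, n = 3) in male controls, with 43.9% the lowest, and 23.4% ± 3.4 (n = 3) at 6 weeks, with 25.7% the highest. In females it was 45.2% ± 3.8 (n = 4) and 20.8% ± 2.2 (n = 4). The share of *Ltbp3* was 49.1% and 69.3% in males and 51.7% and 67.2% in females, and that of *Ltbp2* was 4.03% and 7.32% in males and 3.15% and 12.01% in females. These shares are given without a test.

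**Figure D3:**
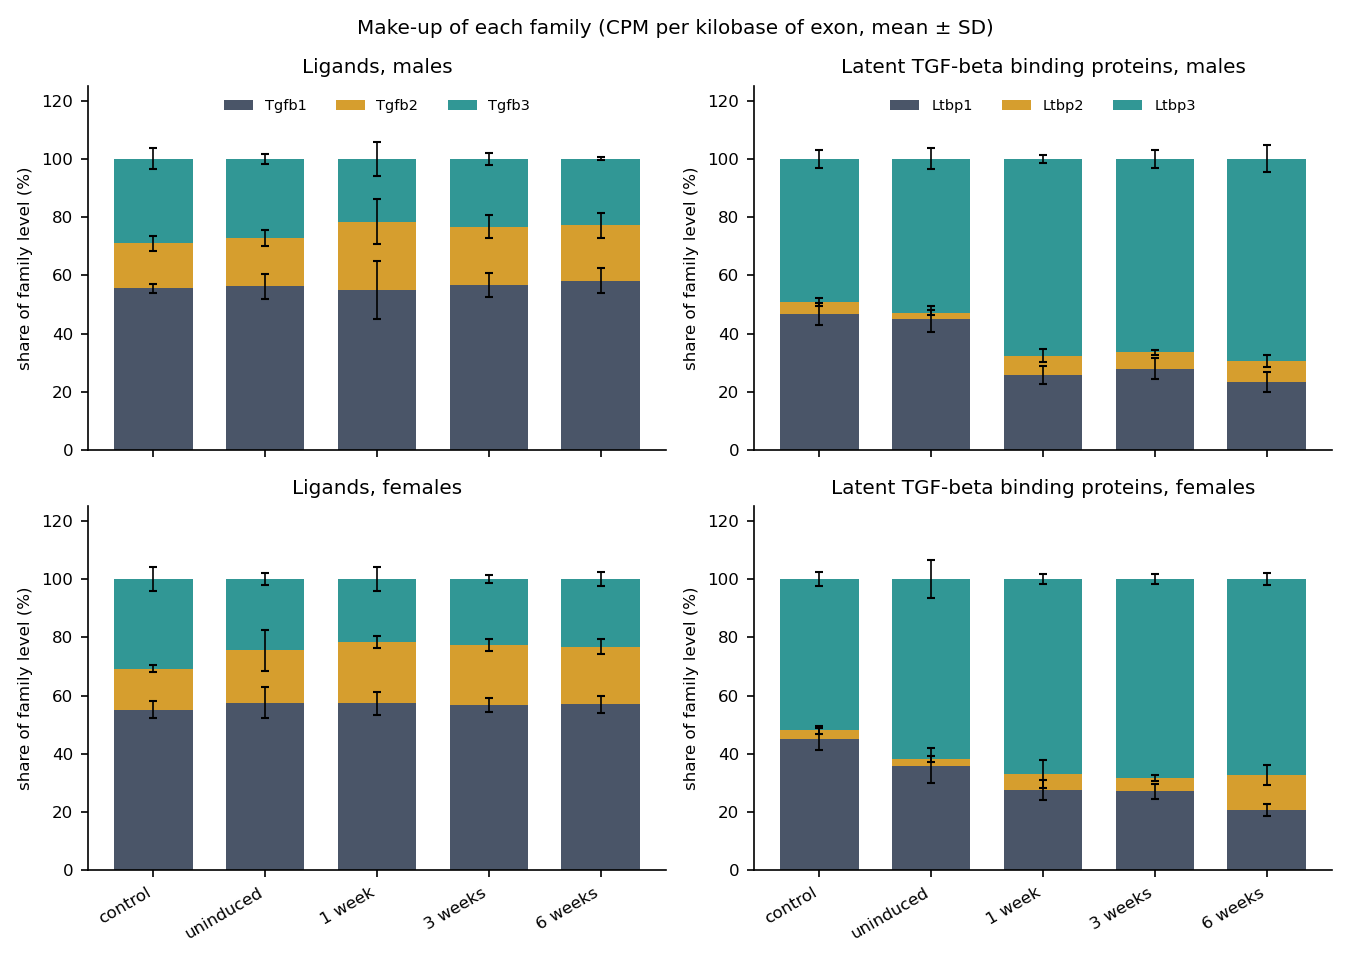
Share (y axis, percent) of each of 3 ligands and of each of 3 latent TGF-beta binding proteins (without *Ltbp4*) in the summed level of its 3 genes, in CPM per kilobase of exon, by group and sex; bars are means and lines are SDs of 3 or 4 hearts. The share of *Ltbp1* is near 46.8% in male and 45.2% in female controls and 23.4% and 20.8% at 6 weeks.

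The genes whose 8 log2 fold changes against control (1, 3 and 6 weeks and uninduced, in both sexes) lay closest to those of *Tgfbr2* among 16627 genes tested in both sexes were *C1qb*, *C1qc* and *Ly86*, at Euclidean distances of 0.336, 0.364 and 0.391. *C1qb* and *C1qc* encode chains of complement C1q. Their log2 fold changes at 6 weeks were 2.33 and 2.18 in males and 2.34 and 2.24 in females. For *Ltbp2*, the member with the next largest mean change, the closest genes were *Tmem132e*, *Vgll3* and *Mcemp1*, at larger distances of 1.10, 1.23 and 1.23.

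Markers of other cells were counted in the same comparisons, for which the shares of all genes called are given above. The 7 macrophage genes checked (*Cd68*, *Adgre1*, *Csf1r*, *C1qa*, *C1qb*, *Lyz2* and *Mrc1*) were all higher at each time in both sexes, and none was at 0. At 6 weeks their median log2 fold change was 1.92 (males) and 2.34 (females). Their sum was 204 to 332 CPM in male controls, 297 to 429 in uninduced males, 803 to 923 at 1 week, 757 to 1000.0 at 3 weeks and 847 to 1199 at 6 weeks. In females it was 187 to 244, 351 to 469.9, 881 to 944, 922 to 1165 and 1031 to 1178 CPM. The uninduced female heart with the most *Tgfbr2* also had the highest sum of its group, 469.9 CPM. In uninduced females 7 of 7 were higher, and in uninduced males 0 of 7 in limma, and the median of the latter was 0.55 on the log2 scale. In bulk tissue, fewer or more cells of a type and less or more RNA per cell cannot be told apart, and the part of these cells in the level of *Tgfbr2* was not tested.

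**Figure D4:**
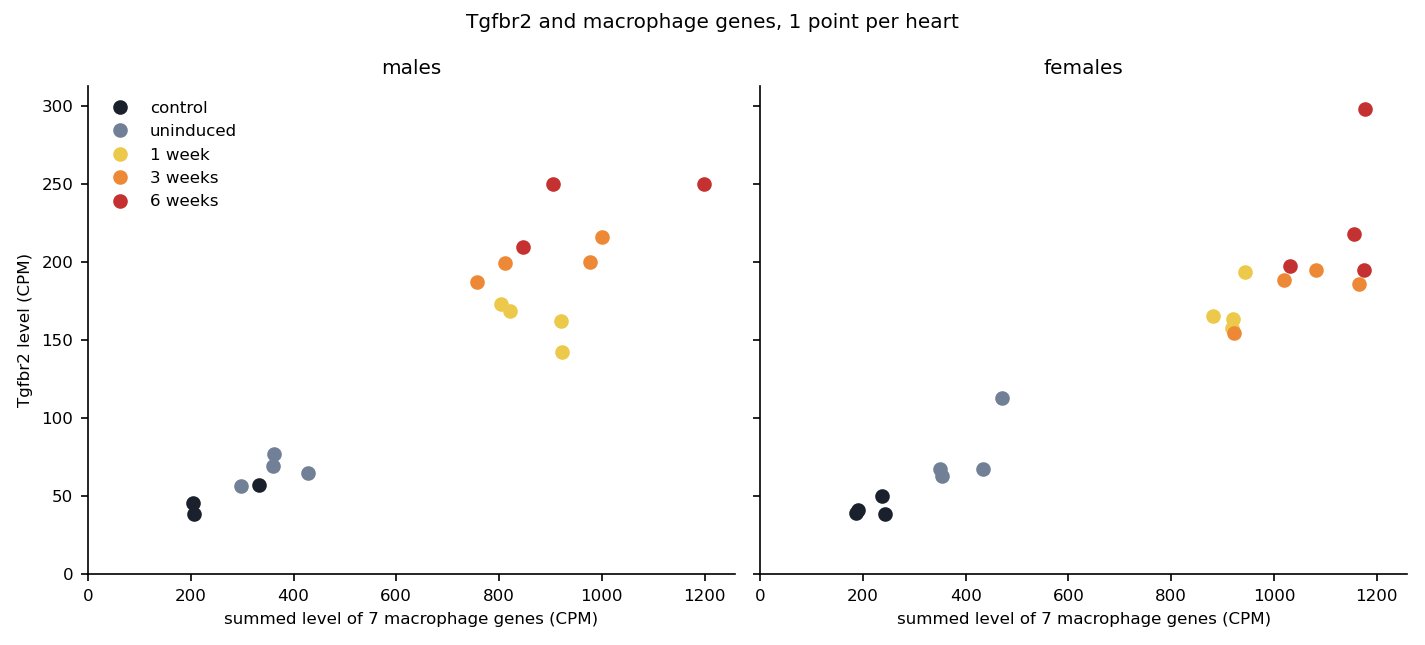
*Tgfbr2* level (y axis, CPM) against the summed level of 7 macrophage genes (x axis, CPM), with 1 point per heart, coloured by group, males at left and females at right. Control and uninduced hearts lie at or below 469.9 CPM on the x axis and 113 CPM on the y axis, and hearts after tamoxifen lie at or above 757 and 142 CPM.

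Of 7 fibroblast genes, males had 5, 4 and 4 higher at 1, 3 and 6 weeks, females had 4 higher at each time, and 1 was lower each time in either sex. Those that rose included *Dpt* (2.17 in males and 2.43 in females at 6 weeks), *Lum* (1.89 and 1.88) and *Dcn* (1.57 and 1.59). The 7 genes summed to 1270 to 1458 CPM in male controls and 1570 to 1752 CPM in males at 6 weeks, and to 1711 to 1939 and 1782 to 2733 CPM in females. The mean of *Dcn* alone went from 255 CPM in controls to 756 CPM at 6 weeks in males and from 320 to 967 CPM in females. The median sum of the 7 went only from 1357 to 1575 CPM and from 1816 to 2150.5 CPM. Apart from the 3 named genes, the rest of the list together was thus lower at 6 weeks than in controls. The sum at the other times was 1411 to 1517 CPM in uninduced males, 1425 to 1689 at 1 week and 1473 to 1543 at 3 weeks, and 1610 to 2180, 1499 to 2315 and 1520 to 1903 CPM in females. Over all genes at 6 weeks, 16.2% were higher and 10.9% lower in males, and 21.7% and 21.0% in females. Of 7 endothelial genes, 4 were lower at 6 weeks in each sex and none was higher, with *Kdr* at -1.19 and -0.80, *Tie1* at -0.51 and -0.81 and *Cdh5* at -0.63 and -0.65. Of 6 smooth muscle and pericyte genes, 2 were lower at 6 weeks in each sex (*Rgs5*, -0.99 and -0.74, and *Kcnj8*, -0.61 and -0.52). Of 9 ventricular cardiomyocyte genes, 1 was lower in males and 3 in females at 6 weeks and none was higher, and *Ryr2*, the one lower in both, fell by 0.90 and 0.63 on the log2 scale. Of the T and B cell genes tested, 2 of 5 in males and 4 of 8 in females were higher at 6 weeks and none was lower, with *Cd4* up by 2.02 and 2.21 and *Cd79b* by 0.88 and 0.81. Of 4 platelet genes, 3 were higher and 1 lower in males at 6 weeks and 2 were higher in females, with *Pf4* up by 2.00 and 1.40 and *Itga2b* by 1.69 and 0.96. Of 4 mesothelial genes, 3 were higher in females at each of the 3 times, with medians of 2.82, 2.39 and 3.10 on the log2 scale, and none was called in males. Of 5 erythroid genes, 5 were higher in females at 1 week and 0 in the other 5 comparisons after tamoxifen, in limma.

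Other genes of the pathway were taken as 4 lists, whose counts stand beside the shares of all genes called that are given above. Of 13 genes for storing and activating the ligand, males had 8, 7 and 6 higher at 1, 3 and 6 weeks and 2, 1 and 0 lower, while females had 8, 7 and 9 higher and 2, 2 and 1 lower. *Itgb8*, a subunit of an integrin that releases active TGF-beta, rose from 0.653 ± 0.090 CPM (SD, n = 3) in male controls to 4.20 ± 1.12 (n = 3) at 6 weeks and from 0.850 ± 0.130 (n = 4) to 9.35 ± 3.00 (n = 4) in females, with log2 fold changes of 2.00 ± 0.25 (SE) and 2.82 ± 0.27. *Emilin1*, a matrix glycoprotein that binds the TGF-beta propeptide, rose by 2.01 ± 0.17 and 2.50 ± 0.19. *Lrrc32*, which anchors latent TGF-beta on the surface of platelets and regulatory T cells, rose by 1.54 ± 0.26 and 2.00 ± 0.19, and *Nrros*, which does so on macrophages and microglia, by 1.39 ± 0.24 and 1.39 ± 0.18. The list's median at 6 weeks was 0.63 (males) and 1.09 (females) on the log2 scale, beside -0.01 and -0.02 for all genes.

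Of 7 other receptors and co-receptors, 1 was higher and 1 lower in males at 6 weeks, and 2 were higher in females. *Acvrl1*, the endothelial type I receptor ALK1, rose by 0.60 ± 0.12 (SE) and 0.43 ± 0.11. Of 14 other Smads and Smad regulators, males at 6 weeks had 1 higher and 2 lower, beside 16.2% and 10.9% of all genes. Females had 2 higher and 3 lower, beside 21.7% and 21.0%. *Tgif1*, a corepressor of Smads, rose by 0.59 ± 0.21 and 0.79 ± 0.16. *Zfyve9*, the Smad anchor for receptor activation, fell by 0.71 and 0.49 on the log2 scale, and *Usp15*, a deubiquitinase that acts on the type I receptor, by 0.46 and 0.23. The median log2 fold changes of these lists at 6 weeks were 0.00 and -0.04, and -0.23 and 0.05, in males and females.

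Of 17 genes known to be induced by TGF-beta, males had 12 higher at each of the 3 times, and females had 12, 12 and 13 higher and 1 lower, at 3 weeks. *Comp*, a matrix protein of cartilage and fibrotic tissue, rose from 1.16 ± 0.37 CPM (SD, n = 3) in male controls to 121 ± 37 (n = 3) at 6 weeks, and from 1.38 ± 0.43 (n = 4) to 271 ± 138 (n = 4) in females, with log2 fold changes of 6.17 ± 0.29 (SE) and 7.08 ± 0.41. *Timp1*, an inhibitor of matrix proteases, rose by 4.54 ± 0.38 and 4.99 ± 0.44, *Lox*, which cross-links collagen, by 3.67 ± 0.31 and 4.70 ± 0.29, and *Col3a1*, a fibrillar collagen, by 3.72 ± 0.28 and 4.08 ± 0.20. The median of the list at 6 weeks was 2.03 in males and 2.58 in females. The genes of this list that were not called in either sex at 6 weeks were *Ccn2* (-0.22 in males and 0.21 in females), *Acta2* (-0.47 and -0.19), *Tagln* (0.08 and 0.17) and *Cdkn1a* (0.19 and -0.32), a group that was named after its values were seen. *Ccn2* encodes a matricellular protein, and *Acta2* and *Tagln* encode smooth muscle cytoskeletal proteins that are also made by myofibroblasts.

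**Figure D5:**
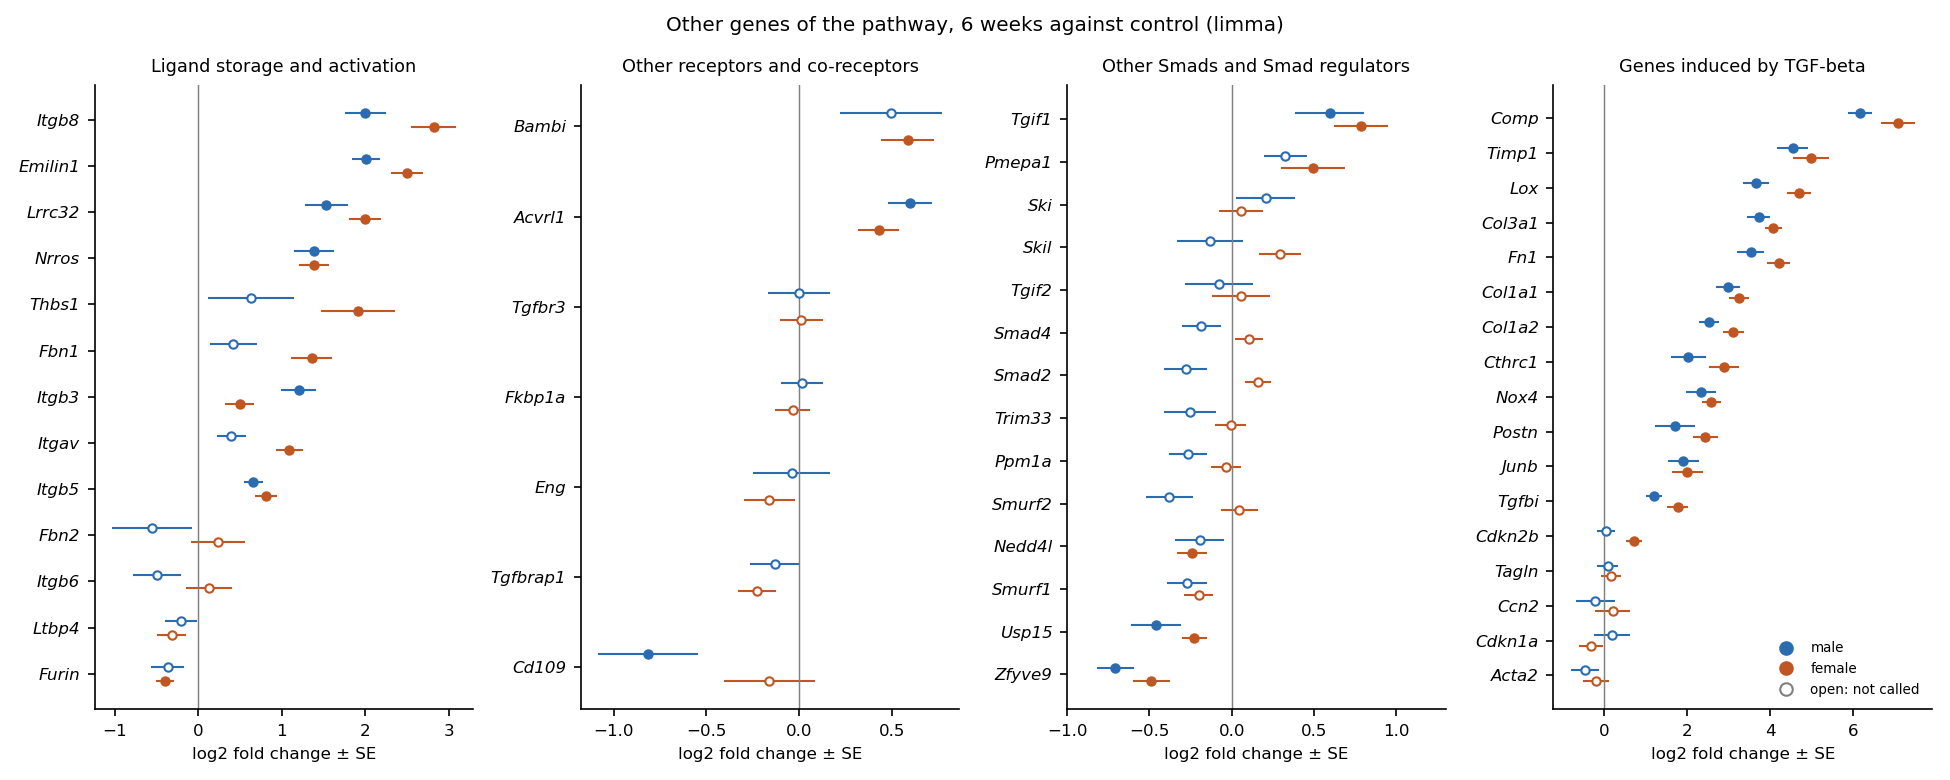
Log2 fold change (x axis) at 6 weeks against control, with its standard error, of the genes of the 4 pathway lists, males in blue and females in orange; filled points passed an adjusted p of 0.05 in limma. The genes induced by TGF-beta run from *Comp* at 6.17 and 7.08 down to *Acta2* at -0.47 in males and *Cdkn1a* at -0.32 in females.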

How the data were processed

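PolyA RNA was sequenced from 40 mouse hearts, 1 library per mouse. Per the labels and the study's methods, reads were aligned to GRCm39 and counted per gene with featureCounts. The deposited values are a CPM-scale signal per gene and library, for which the authors scaled read counts by library. Column sums ran from 817394.9 to 1196277.6, and 100% of values lay within 0.001 of a whole read, so reads were recovered for the count-based alternatives. The test had been planned for CPM and was kept.

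Each table of 1 sex was fitted with limma 3.58.1 (R 4.3.3; empirical Bayes with a mean trend) on log2(CPM + 0.5), so fold changes of low genes are understated. Genes with at least 0.5 CPM in at least 3 libraries entered, with all groups of a sex in 1 fit and Benjamini-Hochberg adjustment over all genes tested. Genes with an adjusted p under 0.05 were called. The script was tested on simulated data. Alternatives were pseudocounts of 0.1 and 2, no filter, at least 1 CPM in at least 4 libraries, median-of-ratios scaling, only the 2 groups compared, edgeR 4.0.16 and DESeq2 1.42.0 on recovered reads, a replicate block, a minimum log2 fold change of 1, and each library left out in turn. A fit without the 2 female libraries with atrial genes was chosen after seeing the data. Depth per library is given with the data above, and the spread between 3 or 4 mice, not counting error, sets the precision of most values. Replicates were separate mice, and their counts differed by more than sampling noise (chi-square per gene of 6.59 or more in 54 pairs).

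The 10 members, the pathway lists and the marker lists were chosen with earlier results of these data known. A gene of the list induced by TGF-beta is not reported here. The genes named were the members, *Il11*, up to 4 genes of each pathway list and up to 3 of each marker list with the largest mean change at 6 weeks among those called the same way in both sexes, and the 3 genes most like each of the 2 members that moved most. *Myl7*, *Myl4*, *Myh6*, *Myl2*, the macrophage genes, *Gm4668* and the uncalled genes induced by TGF-beta were named after their values were seen. *Ltbp4* was named only as outside the shares. Gene positions and starts are from GENCODE vM39 on GRCm39, and levels per kilobase use the summed length of all annotated exons. Male libraries titled control replicate 2 and 6-week replicate 2 carry descriptions of each other's group and were left out of comparisons.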

Additional observations from a re-analysis of the deposited data

Results flagged for a closer look

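Each member was checked in each group of 4 hearts, which made 80 sets of 4 values. In 6 of these sets, 1 heart had a gap to the nearest other heart that passed the 95% critical value of Dixon's test, as a share of the range. Chance alone flags about 1 in 20 sets, but the sets share hearts and are not independent. All 6 were in females. Uninduced replicate 3 stood apart in *Tgfbr2* (112.9 CPM, share of 0.902) and *Tgfbr1* (29.36 CPM, 0.844), and uninduced replicate 4 in *Ltbp2* (3.48 CPM, 0.841). Replicate 3 at 6 weeks stood apart in *Tgfbr1* (41.59 CPM, 0.925), replicate 2 at 1 week in *Ltbp2* (19.46 CPM, 0.873) and, on the low side, replicate 2 at 3 weeks in *Ltbp3* (64.22 CPM, 0.915).

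The 2 male libraries with contradictory labels entered no comparison. The library titled as a control and described as 6 weeks held 511.2 CPM of *Il11*, where the highest male control held 0.1465 CPM. It also exceeded the highest male control in *Tgfbr2* (227.2 against 56.94 CPM), *Tgfbr1* (34.99 against 14.67), *Ltbp3* (79.38 against 46.53), *Ltbp2* (7.302 against 4.51), *Tgfb2* (13.33 against 9.051), *Tgfb1* (30.48 against 28.97) and *Smad3* (23.18 against 18.9). The library titled as 6 weeks and described as a control held 0.597 CPM of *Il11*. In the members it was above the highest male control in *Smad7* (22.88 against 17.16 CPM), *Ltbp3* (52.1 against 46.53) and *Ltbp1* (57.27 against 56.09). The group of these 2 libraries was not settled here.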

How the results depend on the processing

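None of the 200 log2 fold changes of members (10 genes, 10 comparisons, 2 sexes) that were called changed sign under any alternative. Where counts moved, the cause was not tested unless the setting itself lowers them. The share of all genes called under each alternative is not given here, so these counts are not read as results about the members. With a minimum log2 fold change of 1, members called at 1, 3 and 6 weeks became 3, 1 and 3 (from 5, 4 and 5) against control and 2, 2 and 2 (from 4, 4 and 4) against uninduced in males. In females they became 1, 1 and 4 (from 5, 5 and 7) against control, 1 and 1 at 1 and 3 weeks (from 2 and 2) against uninduced, and 0 (from 1) in uninduced hearts. DESeq2 called 1 male member, where limma called 0, in uninduced hearts and at 6 against 1 week. With only the 2 groups in the fit, 9 female members were called at 3 weeks against control (6 higher and 3 lower, from 5) and 0 in uninduced females (from 1). Without the 2 female hearts with atrial genes, 1 member was called at 6 against 1 week (from 0), 6 were higher at 6 weeks against control (from 7), and 1 was lower at 1 week against control (from 0).

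Leaving out single hearts gave 3 to 5 members in males at 1 week against control (3 without replicate 1 at 1 week) and 3 to 5 in females at 3 weeks (3 without control replicate 2 or without replicate 1 or 4 at 3 weeks). It gave 0 to 1 in uninduced males (1 without control replicate 4) and 0 to 1 in males at 6 against 1 week (1 without 6-week replicate 1). Against uninduced females it gave 2 to 4 members at 1 week and 2 to 4 at 3 weeks, with 4 at either time without uninduced replicate 3 and 4 at 1 week without replicate 4 of that week. Between weeks in females it gave 0 to 2 at 6 against 1 week (2 without 1-week replicate 2) and 0 to 1 at 6 against 3 weeks (1 without 6-week replicate 1).

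The replicate numbers were not treated as pairing the libraries. Deviations of libraries with the same number had a mean correlation of 0.013 in males (-0.134 to 0.256) and 0.025 in females (-0.342 to 0.563). For libraries with different numbers the mean was -0.004 and -0.009. In males 5 of 18 libraries and in females 9 of 20 correlated best with a library of their own number. These counts were not tested against unpaired numbers. A fit with the replicate number as a block called 3 male members at 3 weeks against control (from 4) and 3 at 6 weeks against uninduced (from 4), and 6 female members at 6 weeks against control (from 7) and 3 at 1 week against uninduced (from 2).

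Depth did not keep any member from being counted, and the limits lie in the number of mice. Groups of 3 or 4 mice leave calls near the threshold to single hearts. Male and female tables were scaled apart. The titles of controls read Baseline, and the time after tamoxifen at which they were collected is not otherwise given in the sources used here. Tamoxifen and *Rosa26-Il11* cannot be told apart in uninduced hearts against controls. Nor can tamoxifen and the induction of *Il11* in hearts after tamoxifen against uninduced hearts.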
